A study of Mus musculus with 9 samples.

Results

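The genes Dnmt1, Dnmt3a, Dnmt3b, Dnmt3l, Uhrf1, Tet1, Tet2 and Tet3, which encode the enzymes that write and oxidize DNA methylation and their closest cofactors, were examined for BAP1 binding in the mouse B cell precursor line Ba/F3. These 8 genes were taken by name from a list of 37273 annotated genes, of which 22367 are protein-coding, and all 8 were found. BAP1 is a deubiquitinase that removes ubiquitin from histone H2A. The study mapped its binding sites by ChIP-Seq with an anti-BAP1 antibody (52.8 μg) in wild type (WT) Ba/F3 cells, and with an anti-FLAG antibody (5 μg) in Ba/F3 cells that stably express triple-FLAG-tagged murine BAP1 and are kept under puromycin. Both are cultures of 1 cell line grown with IL-3, and the tagged protein is present in addition to whatever BAP1 the line makes itself. The series also has 4 input DNA samples and 3 samples for H2AK119ub, which were not analysed here.

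Both immunoprecipitations stand behind a single list of 13164 binding sites (or peaks), each 200 bp wide and without a height or score. From this list alone no value per sample could be given for any gene. The paper also reports normalized read intensities around the peak summits, which were not used here. Each immunoprecipitation was sequenced once, so nothing below has a replicate error or a test. The sequencing depth is unknown. Gene-proximal peaks were those with their middle at most 1 kb from some annotated transcription start site (TSS), and all others were gene-distal, which gave 10073 of the former and 3091 of the latter. Absence of a peak means only that none was listed.

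In mammals, DNA methylation sits mainly on the cytosine of CpG dinucleotides. Dnmt1 copies methylation onto the new strand after replication, and Uhrf1 recognizes the half-methylated site and recruits Dnmt1 to it. Dnmt3a and Dnmt3b set new methylation, Dnmt3l is a catalytically inactive cofactor of both, and the TET enzymes oxidize methylcytosine to hydroxymethylcytosine and beyond. In blood cells DNMT3A and TET2 are well known as genes that are mutated in clonal hematopoiesis and leukemia.

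The sequences under the gene-proximal peaks of the 5 genes that had one are shown first, because they are what the binding data on these genes consist of. They are given 5′ to 3′ on the strand of the gene in mouse build NCBIM37 (mm9), with CpG dinucleotides in capitals. Stretches that lie in an annotated exon or downstream of a RefSeq start inside the same peak were left out, so 5 of the 8 sequences are shorter than the peak.
Dnmt1, chr9:20757068-20757156, minus strand: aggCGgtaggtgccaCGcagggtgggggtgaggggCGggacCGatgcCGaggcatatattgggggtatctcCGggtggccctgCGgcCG
Uhrf1, first peak, chr17:56442612-56442743, plus strand: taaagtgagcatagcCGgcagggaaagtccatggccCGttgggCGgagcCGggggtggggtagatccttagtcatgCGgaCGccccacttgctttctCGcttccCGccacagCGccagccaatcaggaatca
Uhrf1, second peak, chr17:56443491-56443690, plus strand: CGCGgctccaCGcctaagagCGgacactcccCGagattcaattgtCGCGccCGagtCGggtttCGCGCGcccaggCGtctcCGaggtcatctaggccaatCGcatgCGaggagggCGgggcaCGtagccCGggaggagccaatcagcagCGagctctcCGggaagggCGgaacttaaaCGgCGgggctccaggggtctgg
Dnmt3a, first peak, chr12:3806427-3806497, plus strand: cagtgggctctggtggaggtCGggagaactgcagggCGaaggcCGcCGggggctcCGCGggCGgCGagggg
Dnmt3a, second peak, chr12:3806817-3806979, plus strand: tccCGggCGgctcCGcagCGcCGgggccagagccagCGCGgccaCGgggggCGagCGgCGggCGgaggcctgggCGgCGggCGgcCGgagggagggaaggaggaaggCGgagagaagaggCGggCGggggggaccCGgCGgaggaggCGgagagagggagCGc
Dnmt3b, chr2:153475062-153475184, plus strand: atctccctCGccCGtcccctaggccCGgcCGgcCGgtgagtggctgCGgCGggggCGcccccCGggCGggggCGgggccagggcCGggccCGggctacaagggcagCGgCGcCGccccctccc
Tet2, nearer peak, chr3:133207575-133207774, minus strand: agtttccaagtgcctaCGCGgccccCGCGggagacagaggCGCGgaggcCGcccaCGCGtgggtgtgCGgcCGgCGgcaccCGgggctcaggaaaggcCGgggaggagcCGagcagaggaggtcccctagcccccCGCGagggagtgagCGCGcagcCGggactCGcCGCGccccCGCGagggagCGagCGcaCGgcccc
Tet2, farther peak, chr3:133207911-133208110, minus strand: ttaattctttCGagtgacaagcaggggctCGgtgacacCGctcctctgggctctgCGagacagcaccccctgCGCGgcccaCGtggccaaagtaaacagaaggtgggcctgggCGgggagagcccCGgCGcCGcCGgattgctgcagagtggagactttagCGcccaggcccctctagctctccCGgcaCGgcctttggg

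A gene-proximal peak was listed for 5 of the 8 genes (62.5%, 95% Wilson interval 30.6% to 86.3%, counting error only), namely Dnmt1, Uhrf1, Dnmt3a, Dnmt3b and Tet2. Among all annotated genes the share was 26.2%, and among protein-coding genes it was 39.6%, a value inside the interval of the 8 genes. Of the Dnmt genes and Uhrf1, 4 of 5 had one, and Dnmt3l was the exception. Of the TET genes, 1 of 3 had one. Those 5 genes held 8 gene-proximal peaks, and every one of these peaks lay closer to a TSS of its gene than to that of any other gene. In all, 35 peaks lay in or within 50 kb of the 8 genes, and each gene had at least 1, as did 65.6% of protein-coding genes. Besides the 8 at the genes' own starts, 18 lay within 1 kb of the TSS of another gene and 9 were gene-distal.

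**Figure D1:**
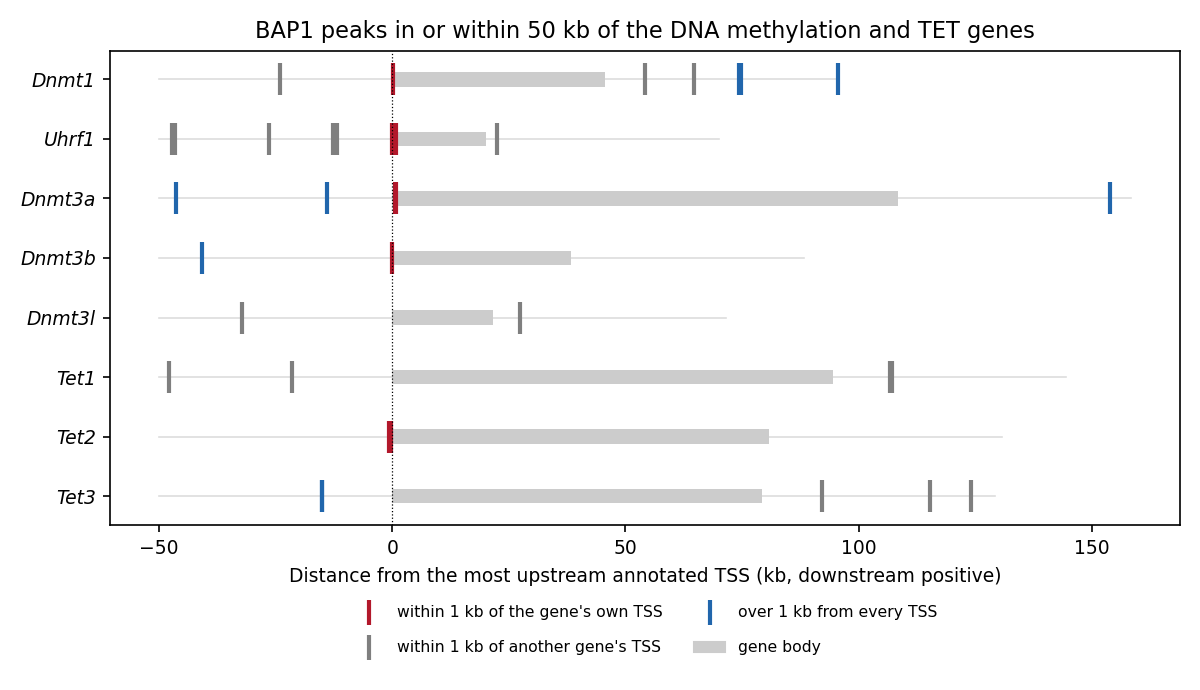
Position of the 35 BAP1 peaks in or within 50 kb of the 8 genes, as distance in kb from the most upstream annotated TSS of each gene, with downstream to the right. Each tick is a peak, red at the gene's own start, grey at the start of another gene and blue where gene-distal, and neighboring ticks can merge. Dnmt3l, Tet1 and Tet3 have no red tick, and none of the 8 gene bodies has a tick beyond its start.

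The maintenance pair, Dnmt1 and Uhrf1, was bound at both genes. At Dnmt1 (ENSMUSG00000004099.8, chr9:20711650-20757317, minus strand) the only annotated transcript starts at 20757317, and the peak at chr9:20756957-20757156 had its middle 261 bp downstream of that TSS, in an intron. Across the protein-coding genes, 14.2% of 11307 pairs of a gene and its gene-proximal peak lay further from the TSS than this. RefSeq places 3 starts at Dnmt1 by exact match of promoter sequence. The peak lay 11 bp from the most downstream of these, at 20757067, and 367 bp from the next, at 20757423. The most upstream RefSeq start, at 20764332, lay 7276 bp from the nearest peak and so had none. That start has a CpG ratio, the observed number of CpG over that expected from its C and G content within 500 bp on either side, of only 0.0588, against 0.62 and 0.593 at the others.

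Uhrf1 (ENSMUSG00000001228.8, chr17:56442744-56462909, plus strand) had a peak at each end of its cluster of starts. The first, at chr17:56442612-56442811, had its middle 33 bp upstream of the most upstream TSS. The second, at chr17:56443491-56443690, lay in an intron of the longest transcript, 846 bp downstream of the first TSS, and 146 bp upstream of the start of the transcript Uhrf1-003. RefSeq also has a start at that second position, 56443736. The middles of both peaks were 879 bp apart, and 81.8% of the gaps between neighboring gene-proximal peaks of 1 protein-coding gene were smaller. The second Uhrf1 peak held 24 CpG in its 200 bp and the first held 11, where the median gene-proximal peak held 19.

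Of the de novo methyltransferases, Dnmt3a (ENSMUSG00000020661.9, chr12:3806007-3914443, plus strand) had a pair of peaks and Dnmt3b (ENSMUSG00000027478.9, chr2:153475186-153513466, plus strand) had 1. At Dnmt3a the middle of the first peak, chr12:3806427-3806626, lay 1 bp upstream of the start of Dnmt3a-017. The second, chr12:3806817-3807016, lay 114 bp upstream of the start of Dnmt3a-001, and the gap between both middles was 390 bp. At Dnmt3b the peak, chr2:153475062-153475261, had its middle 25 bp upstream of the TSS. It also lay within 1 kb of the start of 7530422B04Rik, a processed transcript on the opposite strand, so binding at this site cannot be assigned to Dnmt3b alone. The Dnmt3b peak held 31 CpG and was 83.0% G and C.

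Tet2 (ENSMUSG00000040943.7, chr3:133126643-133207354, minus strand) was the only TET gene with a gene-proximal peak, and both of its peaks lay upstream of the TSS rather than across it. The nearer, chr3:133207575-133207774, had its middle 320 bp upstream, and the farther, chr3:133207911-133208110, 656 bp upstream. Only 11.1% and 3.31% of the pairs of a protein-coding gene and its gene-proximal peak lay further from the TSS. The gap between both Tet2 peaks was 336 bp, and the median gap over 2457 such pairs of neighboring peaks was 281 bp. With Uhrf1 and Dnmt3a, Tet2 made 3 of the 5 bound genes that carried more than 1 gene-proximal peak. Among the protein-coding genes with any gene-proximal peak this was so for 25.5%. Both figures count listed peaks without merging. If peaks within 500 bp are merged, the pairs at Dnmt3a and Tet2 each become 1 peak, and only the Uhrf1 pair stays apart. The joint list does not tell whether a close pair is 1 binding site, and the share over all genes after merging was not computed.

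**Figure D2:**
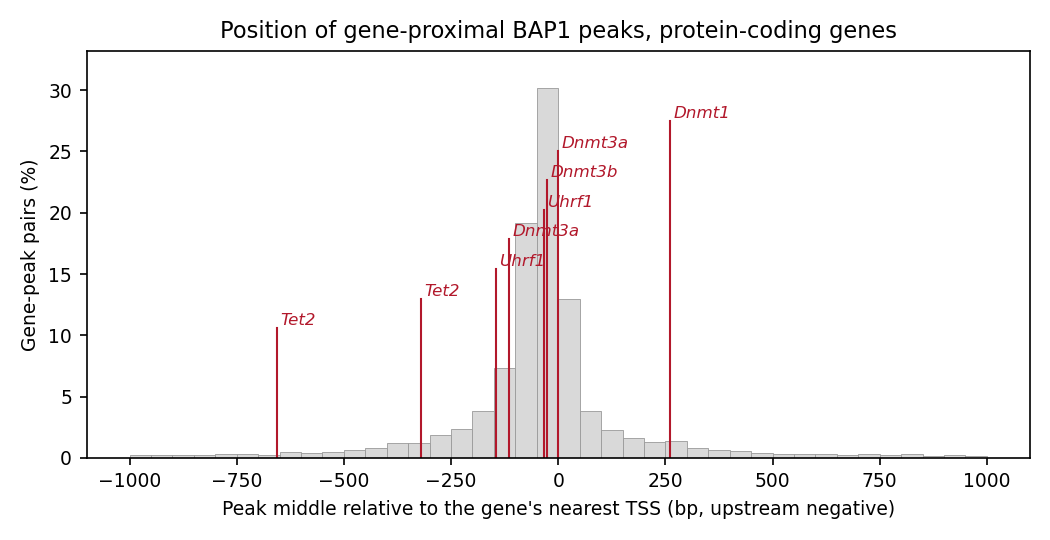
Distance of gene-proximal peaks from the nearest TSS of their gene in bp, with upstream negative. Grey bars give the percentage of 11307 pairs of a protein-coding gene and a peak in steps of 50 bp, and red lines mark the 8 peaks of the named genes, at heights chosen for legibility. Peaks of Uhrf1, Dnmt3a and Dnmt3b sit in or next to the main mass, and those of Tet2 (320 and 656 bp upstream) and Dnmt1 (261 bp downstream) in its tails.

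Over all protein-coding genes the median gene-proximal peak lay at -35 bp from the TSS, with quartiles of -90 and 5 bp. The Dnmt3a peak at 1 bp, the Dnmt3b peak at 25 bp and the first Uhrf1 peak at 33 bp upstream fell between these quartiles, and the other 5 peaks fell outside them.

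The remaining genes had no peak at any annotated start. Dnmt3l (ENSMUSG00000000730.7, chr10:77504692-77526367, plus strand) has 6 start positions, and its nearest peak, 13964 bp downstream of the last of them, lay 61 bp upstream of Icosl, the gene for the ligand of the costimulatory receptor ICOS. Tet1 (ENSMUSG00000047146.8, chr10:62267318-62361866, minus strand) had its nearest peak 21494 bp upstream, at the start of the mitochondrial carrier gene Slc25a16. RefSeq starts Tet1 elsewhere, at 62350072, which is 7310 bp from the nearest annotated start, and that position was 33288 bp from the nearest peak. Tet3 (ENSMUSG00000034832.8, chr6:83312367-83391672, minus strand) had its nearest peak 14998 bp upstream. Its start lies 77 bp from that of the lincRNA B230319C09Rik, which runs the opposite way and had no gene-proximal peak either.

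The sequences just upstream of these unbound starts are shown for comparison with those under the peaks, with CpG in capitals and exonic stretches left out. For Tet1 the RefSeq start was used.
Dnmt3l, chr10:77504881-77505031, plus strand: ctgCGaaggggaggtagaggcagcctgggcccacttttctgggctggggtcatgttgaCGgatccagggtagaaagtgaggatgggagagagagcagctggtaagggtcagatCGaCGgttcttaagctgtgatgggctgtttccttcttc
Tet1, chr10:62350073-62350272, minus strand: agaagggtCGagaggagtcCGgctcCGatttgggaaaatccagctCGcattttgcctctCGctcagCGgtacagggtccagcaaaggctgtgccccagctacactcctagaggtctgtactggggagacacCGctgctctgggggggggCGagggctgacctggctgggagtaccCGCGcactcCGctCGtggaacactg
Tet3, chr6:83391673-83391748, minus strand: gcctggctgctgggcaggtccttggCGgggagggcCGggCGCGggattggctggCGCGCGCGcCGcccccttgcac
The stretch at Dnmt3l holds 4 CpG in 151 bases. That at Tet3 holds 9 in 76 bases and that at Tet1 holds 12 in 200 bases. Of the stretches shown for bound genes, the sparsest, at the first Uhrf1 peak, holds 9 in 132. The densest, at the second Dnmt3a peak, holds 23 in 163, and that at Dnmt1 holds 8 in 89. The bound stretches lie under peaks, and that at Dnmt1 is downstream of its annotated TSS.

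The 8 genes have 49 annotated start positions, which fall into 28 groups when starts within 1 kb of their neighbor are joined. Of these groups 5 had a peak, 1 in each bound gene, and in all 5 genes it was the most upstream group. None of the 14 groups further downstream in the bound genes had one. Most of these 14 lie in Dnmt3a, and the share of such groups with a peak over all bound protein-coding genes was not computed. Counted by single positions, 5 of the 22 starts over 1 kb downstream of the most upstream TSS in the bound genes had a peak within 1 kb, all of them in the first group of Uhrf1 or Dnmt3a. Across bound protein-coding genes 16.9% of such positions had one, and the most upstream TSS had a peak in 94.8% of genes. The internal start of Dnmt3a from which its shorter isoform is transcribed, at 3891744 in both GENCODE and RefSeq, lay 68259 bp from the nearest peak. Its CpG ratio was 0.499, within the decile of promoters of which 30.1% were bound. The second start of Tet2, at 133151635, was 56039 bp from the nearest peak and had a CpG ratio of 0.212. In Uhrf1 and Dnmt3b the unbound downstream starts belong to transcripts annotated as retained introns. Of the 15 RefSeq promoters of the 8 genes all were placed in NCBIM37, 8 had a peak within 1 kb, and the same 5 genes were bound.

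The CpG ratio of the starts ranged widely among the bound genes and among the others, and both groups overlapped. Within 500 bp on either side of the TSS nearest the peak, the CpG ratio was 0.92 at Tet2, 0.83 at Dnmt3b, 0.769 at Dnmt3a, 0.586 at Dnmt1 and 0.532 at Uhrf1. At the genes without a peak, taken at the start of the longest transcript, it was 0.537 at Tet3, 0.27 at Tet1 and 0.195 at Dnmt3l. Tet3 lay just above Uhrf1 although only Uhrf1 was bound. At other starts Tet1 lay above these values of Dnmt1 and Uhrf1. It had 0.631 at its annotated start at 62342762 and 0.71 at its RefSeq start, and neither start had a peak. Bound starts also varied within a gene. The RefSeq start of Uhrf1 at 56443736 had 0.839. The RefSeq starts of Dnmt3a next to its peaks had 0.96 and 0.987, and its most upstream annotated start had 0.434. The median was 0.771 over the protein-coding genes with a gene-proximal peak and 0.296 over those without.

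When protein-coding promoters were split into deciles by CpG ratio, the share with a gene-proximal peak rose from 0.581% in the lowest decile to 78.9% in the highest. With a start chosen without regard to the peaks, the longest transcript of each gene, these shares were 1.88% and 78.1%. Tet2 fell in the decile with 78.9% bound, Dnmt3b in that with 76.5%, Dnmt3a in that with 71.5% and Dnmt1 in that with 54.1%. Uhrf1, at its most upstream TSS, and Tet3 shared the decile with 30.1% bound. The bound RefSeq start of Uhrf1 at 56443736 fell in the decile with 76.5%. Dnmt3l and the most upstream GENCODE start of Tet1 fell in a decile with 4.03% bound. Another GENCODE start of Tet1, at 62342762, fell in the decile with 54.1% bound. The RefSeq start of Tet1 fell in the decile with 68.0% bound, and its nearest peak was 33288 bp away.

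**Figure D3:**
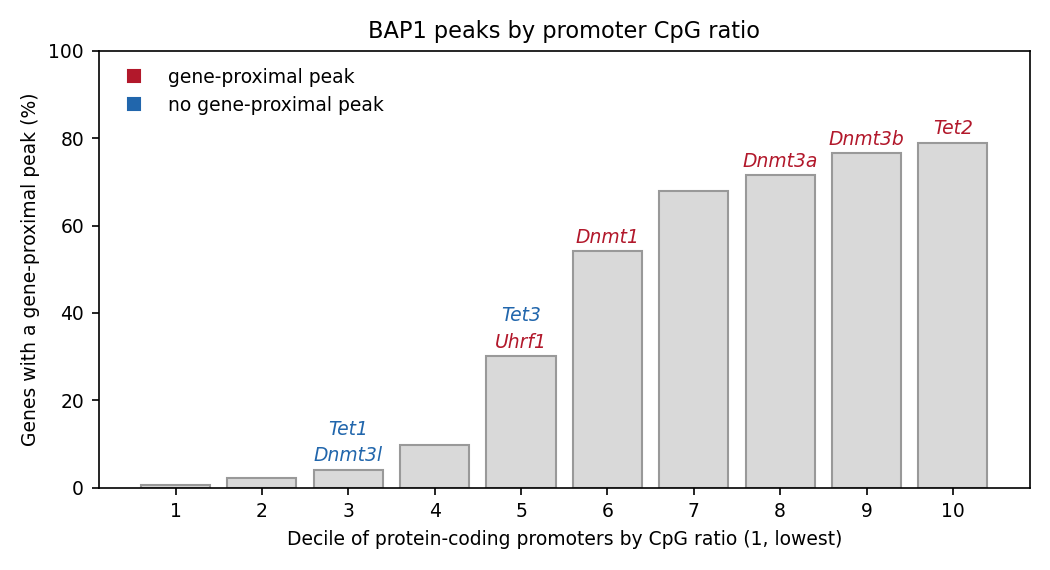
Percentage of protein-coding genes with a gene-proximal BAP1 peak in each decile of promoters by CpG ratio (lowest at left). Gene names are red where a gene-proximal peak was listed and blue where none was. Each stands above the decile of the start nearest its peak, or of its longest transcript where it had none. Other starts of a gene can fall in other deciles, and Tet3 and Uhrf1 share the decile where 30.1% were bound.

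The peaks did not always lie on the CpG-richest stretch of their start. In steps of 100 bp, CpG density around Tet2 was highest 100 bp upstream of the TSS, and both of its peaks lay further upstream. At Dnmt3a the CpG-rich stretch extended well past the peaks, with its highest values 600 and 800 bp downstream of the TSS nearest the first peak. At Uhrf1 the highest value was 800 bp downstream of the first TSS, near the second peak.

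**Figure D4:**
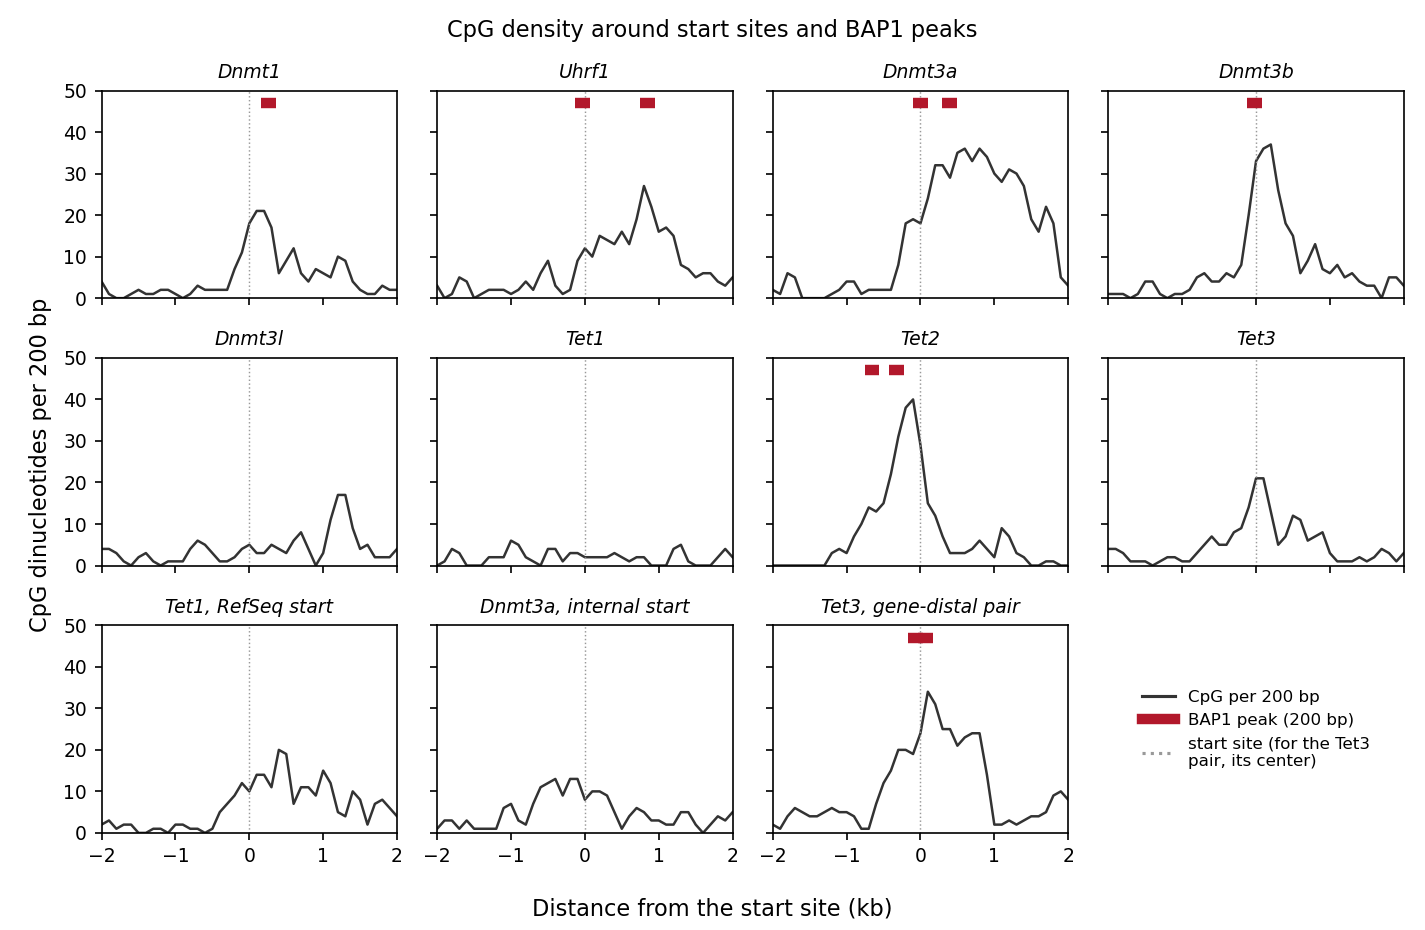
CpG dinucleotides per 200 bp (vertical) against distance in kb from the start site (horizontal, downstream to the right) for the 8 genes, the RefSeq start of Tet1, the internal start of Dnmt3a and the center of the gene-distal pair upstream of Tet3. Red bars mark BAP1 peaks, and the start of Tet3 has a CpG-rich stretch without a peak, while the pair upstream of it sits in one.

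Exact matches to 9 short motifs were searched on both strands of each peak, and 5 of the 8 peaks held at least 1. Matches overlapping one another were all counted, and a match is a description of the letters, not of a bound factor. The letters searched were CCGGAAG (ETS), AAGATGG (YY1), CGCATGCG (NRF1), TGACGTCA (CRE), CCAAT (NFY), GGGGCGG (SP), CACGTG (E-box), ACTACAATT (ZNF143/Ronin) and, for E2F, TTCCCGCC, TTTCCCGC or TTTGGCGC. The Dnmt1 peak held 4 of the motifs, NRF1, NFY, SP and E2F, the last at a pair of positions. The first Uhrf1 peak held E2F and NFY, and the second held NRF1 and NFY. E2F factors drive genes of DNA replication, and NRF1 is a factor whose site contains CpG. The matches to E2F and NRF1 are shown in capitals with the bases around them, because both genes of the maintenance pair had both motifs.
Dnmt1, E2F, chr9:20756974-20756997, minus strand: agctgttgGCGCCAAAatgggtgg
Dnmt1, E2F, chr9:20757019-20757042, minus strand: gggcagcgTTTGGCGCgggctgtg
Dnmt1, NRF1, chr9:20757037-20757060, minus strand: ccagggcgCGCATGCGcggggcag
Uhrf1, E2F, chr17:56442704-56442727, plus strand: tttctcgcTTCCCGCCacagcgcc
Uhrf1, NRF1, chr17:56443583-56443606, plus strand: aggccaatCGCATGCGaggagggc
Among the 10073 gene-proximal peaks 4.97% held an E2F match, 4.28% an NRF1 match and 0.238% both, as the Dnmt1 peak did. At Uhrf1 the motifs lay in separate peaks, and the share of genes with both motifs over all their peaks was not computed. Over all 13164 peaks the shares were 4.24% for E2F and 3.5% for NRF1. Of protein-coding promoters, taken as 200 bp around the TSS, 4.86% of those with a gene-proximal peak held E2F and 3.62% held NRF1, and over all 22367 promoters the shares were 2.88% and 1.74%.

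At the other genes the matches were fewer. The Dnmt3b peak held the SP motif at 3 positions, a motif found in 46.1% of gene-proximal peaks and 40.4% of promoters with a peak, and in 25.7% of all promoters. The farther Tet2 peak held an E-box, as did 8.06% of gene-proximal peaks and 5.49% of all promoters. Both Dnmt3a peaks and the nearer Tet2 peak held none of the motifs. NFY, present at Dnmt1 and Uhrf1, was in 30.0% of gene-proximal peaks and 26.8% of all promoters. ETS (20.2% of gene-proximal peaks, 9.36% of all promoters), YY1 (6.33% and 5.32%), CRE (3.35% and 1.94%) and ZNF143/Ronin (0.477% and 0.286%) had no match in the 8 peaks. Around the unbound starts, the 200 bp at Tet3 held SP and NFY, those at Dnmt3l held NFY, and those at the most upstream GENCODE start of Tet1 held none.

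Gene-distal peaks lay in or within 50 kb of 4 of the 8 genes, which was so for 22.6% of protein-coding genes. Dnmt1 and Dnmt3a had 3 each, Tet3 had 2 and Dnmt3b had 1. None lay inside the body of any of the 8 genes. The pair at Tet3, chr6:83406571-83406770 and chr6:83406706-83406905, overlapped each other 14998 and 15133 bp upstream of the gene, and the nearest annotated start, that of the lincRNA B230319C09Rik, was 14864 bp away. The first of these held 30 CpG in its 200 bp, which 1.16% of the 3091 gene-distal peaks reached, and the second held 16, which 11.5% reached. The median was 4 CpG for gene-distal peaks and 19 for gene-proximal ones. The peak richer in CpG is shown, on the strand of Tet3 and with CpG in capitals, because it held more CpG than 90.5% of gene-proximal peaks.
Tet3, gene-distal peak, chr6:83406571-83406770, minus strand: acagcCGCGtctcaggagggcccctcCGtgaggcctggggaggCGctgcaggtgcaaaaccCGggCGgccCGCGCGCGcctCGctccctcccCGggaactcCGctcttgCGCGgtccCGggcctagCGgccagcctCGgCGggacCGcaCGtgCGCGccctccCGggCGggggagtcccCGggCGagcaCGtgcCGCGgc

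Of the gene-distal peaks near Dnmt1, 2 lay in coding sequence of Angptl6, at 1612 and 1213 bp from its start, with 24 and 19 CpG, and the third was intergenic with 4. The 3 near Dnmt3a held 4, 12 and 16 CpG. One of them lay 14064 bp upstream of the gene in intergenic sequence, one in an intron of Dtnb, and one in coding sequence of Pomc, the precursor gene of corticotropin. The single gene-distal peak near Dnmt3b, 40862 bp upstream, held 4 CpG.

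Peaks at the starts of neighboring genes made up 18 of the 35. Near Uhrf1 there were 6, at Fem1a, Ticam1, Plin3 and Kdm4b, of which Kdm4b, a histone demethylase gene, had its peak 2358 bp beyond the end of Uhrf1. Near Tet1 there were 4, at Ccar1, Slc25a16 and Dna2. Near Dnmt1 there were 3, at Ppan, Eif3g and S1pr2, and near Tet3 also 3, at Mthfd2, Mob1a and Bola3. Near Dnmt3l there were 2, at Pfkl and Icosl. Dnmt3a, Dnmt3b and Tet2 had none. Counting all classes, Uhrf1 had 8 peaks in or within 50 kb, Dnmt1 had 7, Dnmt3a and Tet3 had 5 each, Tet1 had 4, and Dnmt3b, Dnmt3l and Tet2 had 2 each. The median protein-coding gene had 1, with quartiles of 0 and 3. The stretch counted is longer for a longer gene. Per 100 kb of gene and flanks the 8 genes had from 1.11 peaks (Tet2) to 6.66 (Uhrf1), and the median protein-coding gene had 0.938. Tet1 and Tet3, without a peak at their own start, had more peaks than the bound Tet2 and Dnmt3b, while the bound Uhrf1 and Dnmt1 had the most.

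A further 62 genes of the pathway, listed by role, were read the same way, and 50 (80.6%, 95% Wilson interval 69.1% to 88.6%) had a gene-proximal peak, against 39.6% of protein-coding genes. Of 7 maintenance partners 6 had one. The chromatin remodeler gene Hells had its peak 11 bp from the TSS, the ligase gene Lig1 27 bp, the sliding clamp gene Pcna 41 bp and Uhrf2 67 bp, and Cdca7, whose product works with Hells, had its nearest peak 201794 bp away. Of 10 genes for readers of methylated CpG and their relatives by family 9 had one. These included Zbtb4 at 1 bp, Mbd6 at 11 bp and Zbtb38 at 28 bp, and Zbtb33 had its nearest peak 266642 bp away. Of 7 binders of unmethylated CpG 6 had one. Cxxc1 had its peak at 7 bp, Kdm2b at 43 bp, Kdm2a at 90 bp and Cxxc5 at 126 bp, and Cxxc4 had none.

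Of 14 genes for the removal of modified cytosine 10 had a gene-proximal peak. Neil3 had its peak 6 bp, Polb 15 bp, Tdg, which excises the oxidized products of the TET enzymes, 24 bp and Xrcc1 29 bp from the TSS. Smug1, Neil2 and Gadd45g were among those with none. Of 17 genes that supply the methyl donor or the cofactor of the TET enzymes 15 had one, among them Shmt2 at 0 bp, Shmt1 and Idh3b at 6 bp each and Idh1 at 18 bp. Mat1a, the liver form of methionine adenosyltransferase, and Idh2 had none. Of 7 targeting and other partners 4 had one, Trdmt1 at 7 bp, Ogt at 11 bp, Setd2 at 227 bp and Trim28 at 450 bp, and Zfp57, Dppa3 and Nsd1 had none. The intervals of all 6 lists overlapped that of the 8 genes.

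**Figure D5:**
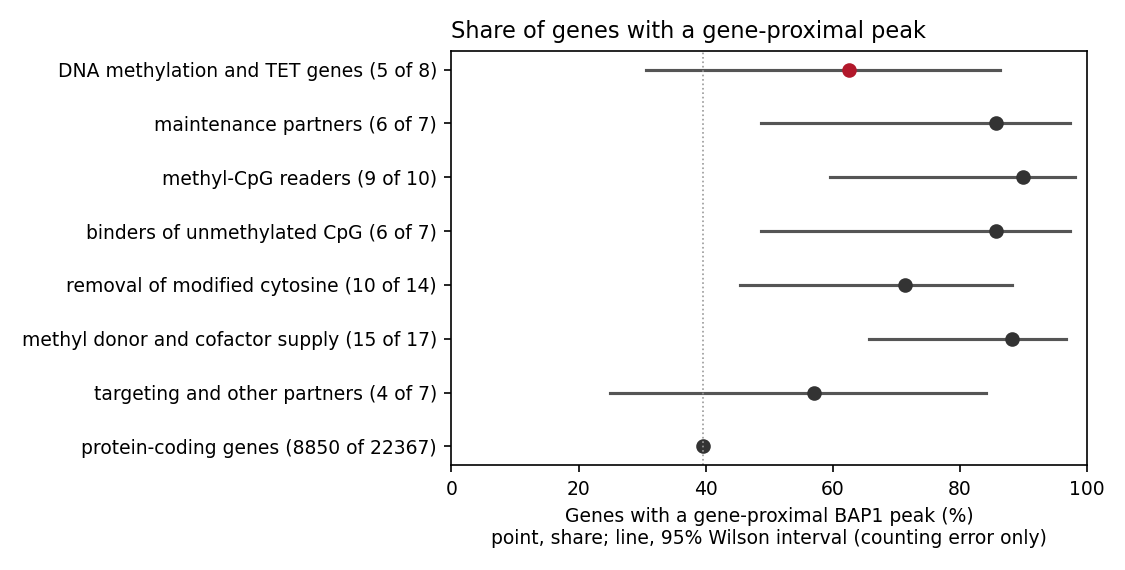
Percentage of genes with a gene-proximal BAP1 peak among the 8 genes (red), the 6 lists of related genes and all protein-coding genes. Points give the share, lines the 95% Wilson interval, which covers counting error only, and the dotted line marks the 39.6% of protein-coding genes.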

How the data were processed

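ChIP-Seq reads were mapped by the authors to mm9 with Bowtie 1.0.0, and peaks were called with MACS 1.4.2 against input DNA of the same cells. The deposited table gives only the start and end of each peak, for the anti-BAP1 and anti-FLAG samples jointly. The threshold and the rule that joined the samples are not given in the sources used here. The effect of another threshold was not examined, since the list used here has no score. Columns per sample left unmatched numbered 0.

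Peaks were placed on GENCODE M1 (NCBIM37, mm9), leaving out the mitochondrial genome. All 8 genes were matched by symbol, as were the 62 related genes. RefSeq promoter sequences from GRCm38.p6 were placed in NCBIM37 by exact match. Distances run from a TSS to the middle of the peak. Python 3.11.15, numpy 2.4.6 and pandas 2.3.3 were used. Distances to the deposited peaks were checked against bedtools 2.31.1, and the calling of gene-proximal peaks was checked on simulated peaks. Intervals are 95% Wilson intervals. No test was run, since the list has no replicates. The genes, the lists and the motifs were chosen with earlier results of these data known. Related genes without a gene-proximal peak are named, and of each list up to 4 genes with one, those whose peak lay closest to a TSS, except that 2 of the genes so chosen are not reported here. All genes whose TSS a nearby peak adjoined are named too. Alternatives were other windows, start sets, peak edges, merging and neighborhoods.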

Additional observations from a re-analysis of the deposited data

How the results depend on the processing

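The count of genes with a gene-proximal peak was 5 with a window of 500 bp, 2 kb or 5 kb, with the nearest edge of the peak, with 1 TSS per gene, with the starts of protein-coding transcripts and with RefSeq starts, the last chosen after seeing the data. Of the 62 related genes, between 46 and 50 were bound. Counts that depend on the neighborhood moved with it. Within 20 kb in place of 50 kb, 20 peaks in place of 35 lay in or near the 8 genes, and 2 genes in place of 4 had a gene-distal peak. The share of protein-coding genes with a gene-distal peak within 20 kb was not computed. Within 100 kb there were 49 peaks, and 29 remained within 50 kb when peaks within 500 bp were merged. No paired analysis was possible because the joint peak list has no column per sample and no result comes from a test. Depth is unknown, so a start without a peak cannot be told apart from binding below the caller's threshold.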

Other observations

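The numbers in the names of the peaks run from 1 to 13164, and their meaning is not stated. Gene-proximal peaks made up 99.1%, 98.5%, 94.9% and 13.5% of 4 successive blocks of 3291 peaks in that numbering. The gene-proximal peak of Dnmt1 had number 889 and that of Dnmt3b 1978. Those of Uhrf1 had 3799 and 7258, those of Dnmt3a 9085 and 4738, and those of Tet2 8662 and 9402. All 9 gene-distal peaks near the 8 genes had numbers of 9799 or above, and most gene-distal peaks of the whole list fell in the last block, from 9874 on.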
